A study of Danio rerio with 6 samples.

Results

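The open regions near the chromosome ends of zebrafish embryos are described here, from ATAC-seq peak lists in the Zv9 build. ATAC-seq finds accessible chromatin, where a transposase can cut and tag DNA for sequencing. The peaks of the 6 lists were pooled, and any that shared 1 bp or more were joined to a union region. On each numbered chromosome except chromosome 4, a region belonged to the ends when it started below position 1000000 or ended within 1000000 bp of the last peak end of that chromosome. This gave 10355 end regions of 187225 union regions in all, 5200 at left ends (low coordinates) and 5155 at right ends. The 165401 other regions of the same 24 chromosomes are called interiors, and 11469 regions on chromosome 4 or on unplaced scaffolds were not used.

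The lists came from nuclei of Tg(fli1a:egfp) embryos at 24 hours post fertilization, in which sequence of the endothelial gene fli1a drives GFP. All groups carry this transgene. GFPplus nuclei (3 libraries, endothelial per the labels) were compared with GFPminus nuclei (3 libraries, non-endothelial per the labels), each library made from 20000 nuclei that were released from deyolked embryos and sorted by fluorescence. The nuclei were isolated on 3 occasions, which the submitters count as biological triplicates. How many embryos were pooled is not stated. In zebrafish this transgene also marks cranial neural crest derivatives, so GFP does not mark endothelium alone. Peaks at marker genes were not analysed here, because no annotation of Zv9 was used, so the labels were not checked against markers.

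Chromosome ends carry telomeres, arrays of a short repeat that telomerase extends, and next to them lies subtelomeric sequence that can share blocks between chromosomes. In zebrafish, crossovers in male meiosis fall mostly near the chromosome ends. Chromosome 4 was left out because its long arm is known as heterochromatic and late replicating. Telomeric arrays and recent repeats are often missing or collapsed in draft assemblies, so the outermost assembled position is not the physical end.

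The lists held 72695, 73716 and 50396 peaks in GFPplus replicates 1, 2 and 3, and 113476, 110663 and 33437 peaks in GFPminus replicates 1, 2 and 3. GFPminus replicate 3 thus had the shortest list. Absence of a call does not mean absence of reads, which the lists do not give.

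Open regions were denser at the chromosome ends than in the interiors in each of the 6 libraries. The GFPplus libraries had 92.7, 96.1 and 64.1 peaks per Mb at the ends, against 51.5, 51.7 and 35.8 peaks per Mb in the interiors (replicates 1, 2 and 3). The GFPminus libraries had 136.5, 129 and 43.9 peaks per Mb at the ends, against 80.1, 78.4 and 23.8 peaks per Mb in the interiors. Each library thus had the higher density at the ends, although the libraries themselves differed in list length. The density at the ends was on average 1.77 times that in the interiors (geometric mean, range 1.65 to 1.86, n = 6 libraries, exact two-sided sign-flip permutation p = 0.031, the smallest that 6 libraries allow). The libraries share 1 genome, so this p covers the spread between libraries and not that between chromosomes. The nuclei came from 3 isolations, and libraries that share an isolation are not independent. Neither this p nor those of the other sign-flip tests over 6 libraries allow for that. Covered sequence followed the same order, with 24.2 ± 6.18 kb per Mb at the ends and 12.6 ± 3.25 kb per Mb in the interiors of GFPplus libraries (SD, n = 3). It was 28.9 ± 12.4 kb per Mb at the ends and 16.1 ± 7.37 kb per Mb in the interiors of GFPminus libraries (SD, n = 3). Over the union regions, the ends held 5.89% of the regions on 3.71% of the sequence, with 216 regions per Mb at the ends and 133 in the interiors. Neighbouring end regions lay a median 3094.5 bp apart, against 4610 bp in the interiors. Gaps in the assembly were not removed from these lengths, and their part in the densities was not tested.

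The density fell off gradually with distance and did not step down at the 1 Mb line. The outermost 100 kb of the 48 ends had 239 union regions per Mb, the stretch from 750 to 1000 kb had 199.8 and the stretch from 1000 to 1500 kb had 186. From 3000 to 5000 kb it was 159, and beyond 10000 kb it was 123.1. The last 100 kb inside the line (190 regions per Mb) and the first 100 kb outside it (187.5 regions per Mb) were nearly alike. In GFPplus replicate 1 the peak density was 114 per Mb in the outermost 100 kb and 49.8 beyond 10000 kb, and in GFPminus replicate 1 it was 165 and 74.6. In each of the 6 libraries the outermost 100 kb had the highest density of the 13 distance classes. Against the nearer sequence, 1 to 5 Mb from the ends, the ends were 1.48 times as dense (exact two-sided sign-flip permutation p = 0.031, n = 6 libraries).

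**Figure D1:**
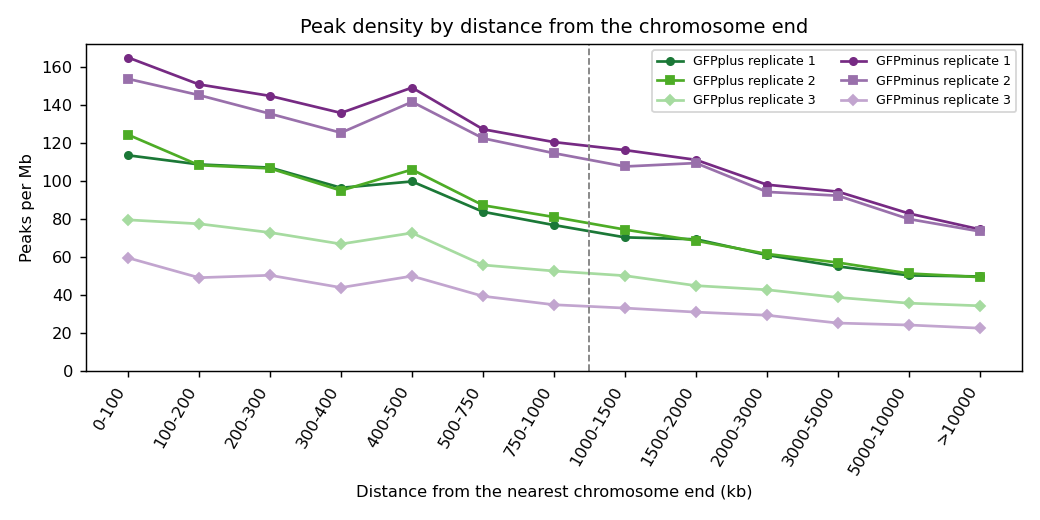
Peaks per Mb (y axis) in each of the 6 libraries by distance from the nearest chromosome end in kb (x axis, classes of unequal width, dashed line at 1000 kb), over 24 chromosomes. In GFPplus replicate 1 the line runs from 114 peaks per Mb in the outermost 100 kb to 49.8 beyond 10000 kb, and each of the 6 libraries is highest in the outermost class and lowest beyond 10000 kb.

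The high density was spread over most chromosomes. Of the 48 ends, 46 had more regions per Mb than the interior of their own chromosome, and 44 did so in all 6 lists. An end held 113 to 280 regions (median 221), and its density was 0.841 to 2.13 times that of its interior (median 1.68). The left end of chromosome 2 held the most regions, 280. Of these, 34 (12.1%) were called in all 6 lists, against 13.6% of all end regions. Next came the right end of chromosome 15 with 277 and the left end of chromosome 17 with 262 regions. These ends were denser than their interiors in each of the 6 lists, at 2.13, 2.0 and 1.98 times the interior density over the union regions.

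A few ends did not share this pattern. The left end of chromosome 3 and the right end of chromosome 20 held 113 regions each, at 0.878 and 0.841 times the density of their interiors. The right end of chromosome 20 was below its interior in each of the 6 lists (0.722 to 0.968 times), while the left end of chromosome 3 was above it in 1 list. The right end of chromosome 22 had 121 regions, at 1.05 times its interior, and was above it in 5 of 6 lists. The left end of that chromosome had 243 regions, at 2.102 times the interior. The left end of chromosome 7, singled out after its values were seen, was another exception. It held 196 regions, 1.46 times its interior over the union regions, but was above the interior in only 4 of 6 lists (0.812 to 1.46 times), and 5.61% of its regions were called in all 6 lists, the lowest share of the 48 ends.

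**Figure D2:**
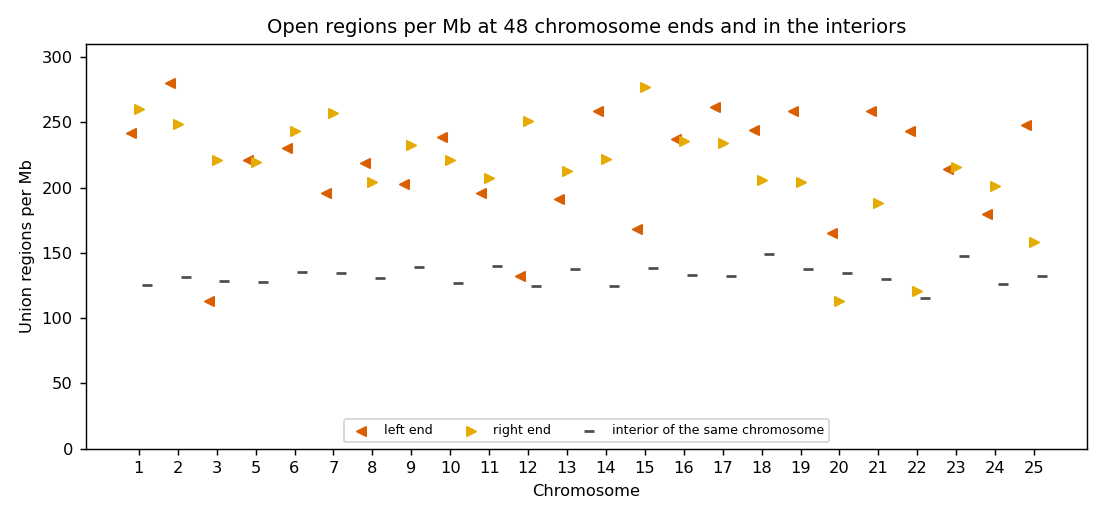
Union regions per Mb (y axis) at the left and right end of each of 24 chromosomes (x axis), with the density in the interior of the same chromosome as a dash. The ends range from 113 to 280 regions per Mb, and only the left end of chromosome 3 and the right end of chromosome 20 lie below their dash.

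Within the ends, the densest stretches of 100 kb held up to 40 regions, against a median of 21.5 over the 476 of 480 windows that held any. One lay on chromosome 2 at 59599147 to 59699146, with 40 regions, of which 4 were called in all 6 lists and 1 was GFPminus-only. Another lay on chromosome 14 at 500001 to 600000, also with 40 regions, of which 9 were called in all 6 lists and 3 were GFPplus-only. The next, on chromosome 1 at 500001 to 600000, held 39 regions, 6 of them called in all 6 lists. Of all end regions, 13.6% were called in all 6 lists, 1.62% were GFPplus-only and 0.676% were GFPminus-only. The counts per window are small, and whether dense windows differ from these shares was not tested.

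Peaks at the ends were higher than interior peaks in the fragments piled up at their summits, and they stood on a higher local background. Both quantities were worked out from the deposited fold and −log10 p, which together fix the pileup at the summit and the background rate the caller used there. The pileup came out as a whole number of fragments within 0.02 for 100% of the 454383 peaks, although whole numbers were not required. The median summit pileup at the ends was 18, 16 and 13 fragments in GFPplus replicates 1, 2 and 3, against 15, 14 and 11 in the interiors. In GFPminus replicates 1, 2 and 3 it was 15, 15 and 14 fragments at the ends, against 13, 13 and 11 in the interiors. Every library therefore had the higher pileup at the ends, by 1.14 to 1.27 times. The median background rate was 2.77, 2.63 and 1.54 fragments at the ends in GFPplus replicates 1, 2 and 3, against 2.20, 2.06 and 1.19 fragments in the interiors. In the GFPminus replicates it was 2.67, 2.62 and 1.52 fragments at the ends, against 2.09, 2.14 and 1.23 fragments in the interiors. The background at the ends was higher in 6 of 6 libraries, by 1.23 to 1.29 times. No test was planned for pileup and background, which were derived after the lists had been examined. A local background is read from the sequence around a peak, so neighbouring peaks can enter it, and their part was not tested. On a higher background a peak also needs a higher pileup to be called, so the 2 quantities are not independent. The part of the calling threshold in the pileups was not tested.

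The fold enrichment, which sets the pileup over that background, differed little between ends and interiors. Its median was 4.69, 4.52 and 5.35 at the ends in GFPplus replicates 1, 2 and 3, against 4.84, 4.63 and 5.29 in the interiors. In the GFPminus replicates it was 4.18, 4.20 and 5.52 at the ends, against 4.31, 4.24 and 5.41 in the interiors. Both libraries numbered 3, which had the lowest background, were higher at the ends and the other 4 were lower. The mean difference was −0.043 (n = 6 libraries, exact two-sided sign-flip permutation p = 0.41) and did not pass the test. When peaks under a −log10 q of 5 were left out it was −0.149 (exact permutation p = 0.062). On lists of equal length it was −0.144 (exact permutation p = 0.125). Both settings keep peaks by p or q. On a higher background a peak reaches the same p at a lower fold, so neither setting decides the sign. The deposited lists end at q = 0.05 themselves. This selection therefore bears on all fold differences given here, those of left and right ends included, and its part was not tested. The fold difference was −0.098 at left ends (exact permutation p = 0.031, n = 6 libraries) and 0.0050 at right ends (exact permutation p = 0.94). The rank of a peak in its own list was higher at the ends. The median percentile of −log10 p (100 for the strongest peak of a list) was 54.5 ± 0.75 at the ends and 49.8 ± 0.14 in the interiors of GFPplus libraries (SD, n = 3). It was 54.9 ± 1.74 at the ends and 49.7 ± 0.089 in the interiors of GFPminus libraries (SD, n = 3). The difference of 4.93 points was positive in 6 of 6 libraries (exact two-sided sign-flip permutation p = 0.031, the smallest possible). At a given fold a higher background alone raises −log10 p, and the part of the background in this difference was not tested.

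The higher pileup and background lay mostly in the outermost 500 kb. In GFPplus replicate 1 the median background was 3.19 fragments in the outermost 100 kb, 2.99 from 400 to 500 kb, 2.31 from 750 to 1000 kb and 2.21 from 1000 to 1500 kb. In GFPminus replicate 1 it was 3.21, 2.86, 2.29 and 2.16 fragments at these distances. The background of these libraries was thus close to the interior level at the 1 Mb line, where the peak density was still above it. The median percentile of −log10 p was 56.3 to 61.7 over the 6 libraries in the outermost 100 kb. It was 49.0 to 55.3 from 500 to 750 kb and 47.8 to 53.4 from 750 to 1000 kb, against 49.6 to 49.9 in the interiors. Median widths differed by little, at 226 ± 11.0 bp at the ends and 220 ± 14.7 bp in the interiors of GFPplus libraries (SD, n = 3).

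**Figure D3:**
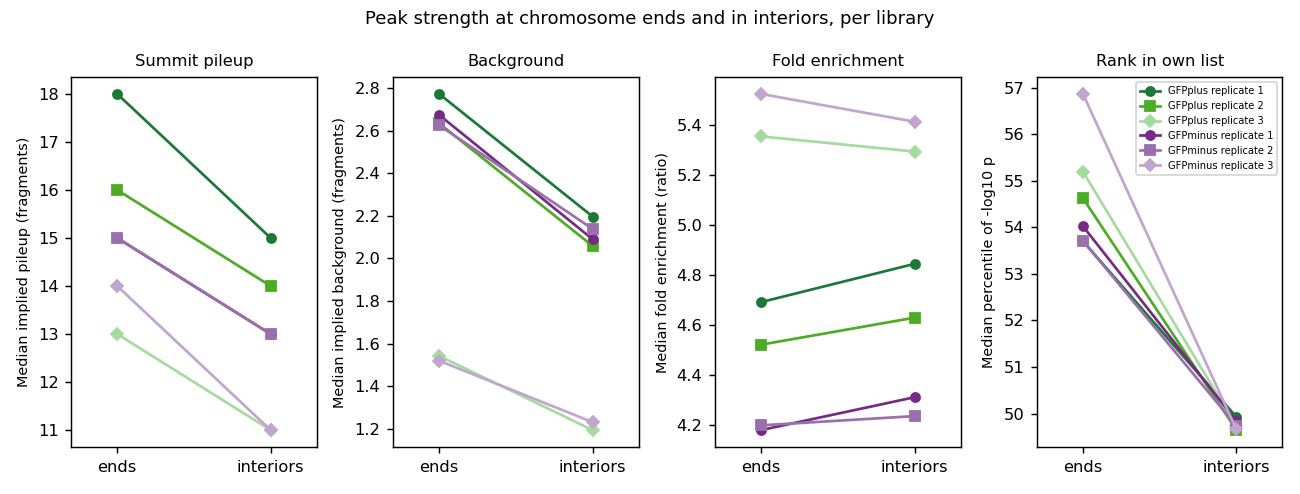
Median implied summit pileup and background (fragments), fold enrichment (ratio) and percentile of −log10 p at ends and in interiors, 1 line per library; y axes do not start at 0. Pileup, background and percentile are higher at the ends in all 6 libraries (the lines of GFPminus replicates 1 and 2 coincide for pileup), and fold is higher in 2 of 6.

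The ends also held more than their share of the strongest peaks, ranked by −log10 p. A higher background also raises this value at a given fold, and its part in these counts was not tested. Of the 100 strongest peaks on the 24 chromosomes, 12, 12 and 10 lay at the ends in GFPplus replicates 1, 2 and 3, and 13, 11 and 8 in GFPminus replicates 1, 2 and 3. Of the 1000 strongest, 9.53% ± 0.67 lay there in GFPplus and 9.23% ± 0.60 in GFPminus libraries (SD, n = 3). Of all peaks of a list on the 24 chromosomes, 5.98% to 6.67% lay at the ends.

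The strongest end region was also the strongest peak of every list. It lay on chromosome 17 at 53841316 to 53841664 (349 bp), 140 kb from the right end. Its summit held 1822, 1813 and 1221 fragments in GFPplus replicates 1, 2 and 3, and 1688, 1739 and 1066 fragments in GFPminus replicates 1, 2 and 3. The background the caller used there was 32.7, 33.1 and 21.3 fragments in the GFPplus and 30.4, 31.5 and 18.5 fragments in the GFPminus replicates. Both numbers were far above the medians of the ends in every library. Both were lowest in the 2 libraries numbered 3, whose most common peak background was also lowest (0.84 and 0.80 fragments, against 1.59 to 1.83 in the other 4). The fold was 54.0 ± 0.61 over the 6 libraries (SD), so pileup and background kept nearly the same proportion. Whether the peak's own fragments entered that background was not tested.

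The next 4 end regions called in all 6 lists were wider and far weaker. On chromosome 8 at 451555 to 452648 (1094 bp), the summit held 231, 227 and 134 fragments in GFPplus replicates 1, 2 and 3, and 280, 251 and 197 fragments in GFPminus replicates 1, 2 and 3. It ranked 24, 12 and 27 in the GFPplus and 4, 11 and 2 in the GFPminus lists. The region at 45755490 to 45756414 of chromosome 23 reached a fold of 20.8 ± 1.04 over the 6 libraries (SD), with 102 to 183 fragments at the summit. The region at 756796 to 757922 of chromosome 22 reached 13.8 ± 1.71 (SD over 6 libraries) and ranked between 4 and 67. The region at 42967042 to 42967744 of chromosome 24 reached 18.3 ± 1.58 (SD over 6 libraries) and ranked between 56 and 135. All 5 were picked because even their weakest −log10 p over the lists was high, so their strength is a description.

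Open chromatin called in all 6 libraries came close to the start of the assembled sequence. A right end is set by the last peak, so a distance from it does not measure nearness to the assembled edge. On chromosome 13 a region at 720 to 1398 was called in all 6 lists, with a fold of 11.3, 7.57 and 10.01 in GFPplus replicates 1, 2 and 3, and of 9.31, 10.3 and 11.1 in GFPminus replicates 1, 2 and 3. On chromosome 10 a region at 46588261 to 46588859, 504 bp before the last peak end, had a fold of 15.5, 12.9 and 15.8 in the GFPplus replicates and of 9.90, 10.04 and 6.87 in the GFPminus replicates. Folds of different lists rest on different backgrounds and were not tested between fractions. At the 1 Mb line, the region just inside lay on chromosome 20 at 54798873 to 54799360, 999876 bp from the right end, and was called in all 6 lists with a fold of 4.50 to 7.72. The region just outside lay on chromosome 15 at 46441166 to 46441870, 1000107 bp from the right end, and was called in 2 lists, with a fold of 4.36 in GFPplus replicate 1 and 3.33 in GFPminus replicate 1.

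End regions recurred in all libraries more often than interior regions. Of the 10355 end regions, 1408 (13.6%, 95% Wilson interval 13.0% to 14.3%) were called in all 6 lists, against 17857 of the 165401 interior regions (10.8%, interval 10.6% to 10.9%) and 10.8% of all 187225 union regions. Regions called in a single list made up 47.1% at the ends and 51.0% in the interiors. These intervals cover counting error only, and regions are not replicates. Regions called in all 6 lists were 2.05 times as dense at the ends (29.3 per Mb) as in the interiors (14.3 per Mb), and regions called in 1 list 1.50 times (102 and 67.7 per Mb). The share called in all 6 lists was 17.6% in the outermost 100 kb, 16.1% from 400 to 500 kb and 10.7% from 750 to 1000 kb. Between 1000 and 1500 kb it was 11.4%. It was above the interior share at 43 of 48 ends, and ranged from 5.61% to 21.4%, the highest at the left end of chromosome 22. When only the 33437 peaks of highest −log10 p were taken from each list, as many as the shortest list has, the shares were 27.5% at the ends and 21.8% in the interiors, against 21.8% of all union regions at that length.

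**Figure D4:**
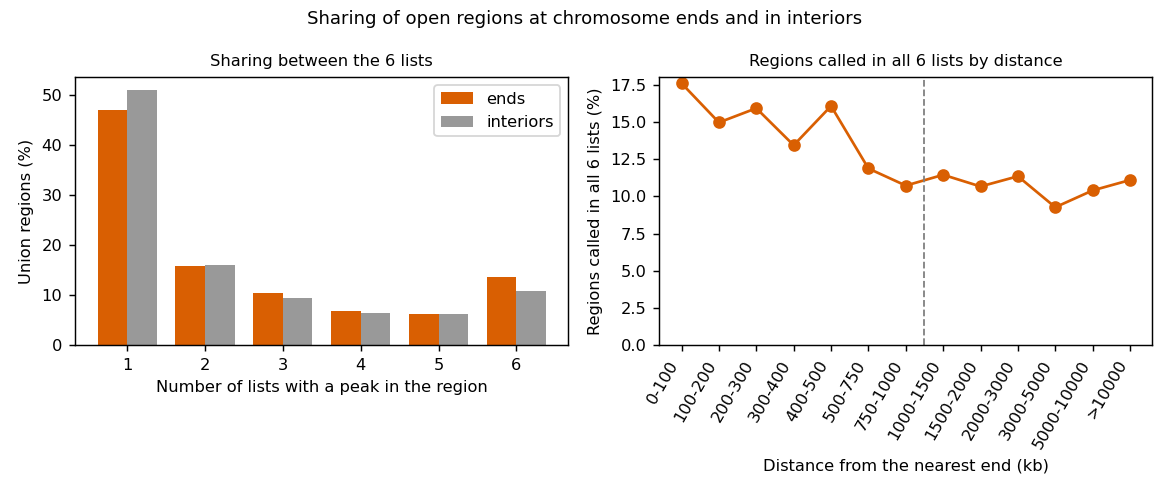
Left, percent of union regions at ends and in interiors by the number of lists (1 to 6) that hold a peak in them. Right, percent called in all 6 lists by distance from the nearest chromosome end in kb (dashed line at 1000 kb). It is 17.6% in the outermost 100 kb, lowest at 9.27% from 3000 to 5000 kb, and 11.1% beyond 10000 kb.

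Recurrent regions at the ends had higher pileups and backgrounds, but lower folds, than recurrent regions of the interiors. Among regions called in all 6 lists, the median background was 1.23 to 1.31 times higher at the ends in 6 of 6 libraries, and the median pileup 1.125 to 1.22 times higher. Their median fold was 0.949 to 0.996 times that of the interiors, lower in all 6 libraries. On a higher background a peak needs a higher pileup to be called but can pass at a lower fold. The part of this in these differences was not tested. Among regions called in a single list, the background was 1.07 to 1.23 times higher at the ends. Both kinds of region therefore stood on a higher background near the ends.

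Regions called in 1 fraction only divided unequally between the fractions at the ends, with a balance that depended on the shortest list and on the call rule. A region was GFPplus-only when all 3 GFPplus lists and no GFPminus list had a peak in it, and GFPminus-only in the opposite case. At the ends 168 regions were GFPplus-only and 70 were GFPminus-only (2.40 to 1), and in the interiors 2011 and 1457 (1.38 to 1). Where calls in at least 2 of a fraction's 3 lists were enough, 414 were GFPplus-only and 795 GFPminus-only at the ends, and 5774 and 14001 in the interiors, so the balance turned round in both zones. GFPplus-only regions were 1.62% of the end regions (95% Wilson interval 1.40% to 1.88%), against 1.22% of the interior regions (1.16% to 1.27%) and 1.22% of all union regions. GFPminus-only regions were 0.676% of the end regions (0.535% to 0.853%), against 0.881% of the interior regions (0.837% to 0.927%) and 0.851% of all union regions. Shares between fractions and zones were described without a test, since the regions of 1 genome are not replicates.

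List length bears on these counts, and the fractions differ in it. With 33437 peaks per list, the ends held 169 GFPplus-only and 62 GFPminus-only regions, and the interiors 2003 and 2029. GFPplus-only regions were then 4.43% of the end regions and 3.56% of the interior regions (3.54% of all union regions). GFPminus-only regions were 1.63% of the end regions and 3.61% of the interior regions (3.40% of all union regions). Per Mb, GFPplus-only regions were 2.19 times as dense at the ends as in the interiors at equal length, and GFPminus-only regions 0.794 times, while on the deposited lists these ratios were 2.17 and 1.25. At equal length the GFPminus-only ratio was 1.27 without GFPminus replicate 3 and 1.05 without GFPminus replicate 2. It was 1.016 without GFPplus replicate 1, 1.02 without GFPplus replicate 2 and 0.847 to 0.853 without 1 of the others. The direction of this density ratio is thus not settled. The GFPplus-only ratio stayed between 1.75 and 2.21 without any 1 library, on deposited lists and at equal length. Union regions of all kinds were already 1.63 times as dense at the ends on the deposited lists, and ratios per Mb include this. As a share of the regions, GFPplus-only regions were 1.05 to 1.33 times as common at the ends without any 1 library. The share of GFPminus-only regions was 0.451 to 0.997 times that of the interiors over all settings. Among the regions called in exactly 3 deposited lists, 15.5% of 1082 at the ends and 12.9% of 15550 in the interiors were GFPplus-only, while 6.47% at the ends and 9.37% in the interiors were GFPminus-only. The lower GFPminus-only share depended on the sequence it was set against: on the deposited lists it was 0.676% at the ends and 0.678% in the sequence 1 to 5 Mb from them. At equal length it was 1.63% at the ends and 2.73% in that sequence. The number of GFPminus-only regions changed most when GFPminus replicate 3, the shortest list, was left out. Leaving out a library also loosened both rules, since fewer lists had to hold or lack a peak. The parts of list length and rule were not told apart. Without GFPminus replicate 3 the ends held 173 GFPplus-only and 749 GFPminus-only regions, and the interiors 2077 and 13342. The balance of the fractions thus turned round in both zones. With lists of 50396 peaks and without that library, the ends held 237 and 211, and the interiors 3228 and 4306. Without 1 of the other 5 libraries the GFPplus-only regions at the ends numbered 197 to 300 and the GFPminus-only regions 76 to 124. The GFPplus-only share was 1.08 times that of the interiors without GFPplus replicate 2, 1.11 times without GFPminus replicate 2, and 1.21 to 1.33 times without 1 of the others.

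By distance, GFPplus-only regions made up 1.83% of the regions in the outermost 100 kb, 1.38% from 750 to 1000 kb and 0.896% from 1000 to 1500 kb on the deposited lists. GFPminus-only regions made up 0.697%, 0.834% and 0.538% at these distances, with a low of 0.186% (2 of 1074 regions) from 200 to 300 kb. Beyond 10000 kb the shares were 1.36% and 0.990%. On the deposited lists the GFPplus-only share was thus lowest just outside the 1 Mb line, and alike from 750 to 1000 kb and in the deep interior. At equal length the order differed. GFPplus-only shares were 4.12% in the outermost 100 kb, 2.95% from 500 to 750 kb and 5.99% from 750 to 1000 kb. They were 3.39% from 1000 to 1500 kb and 3.72% beyond 10000 kb. The GFPminus-only shares at equal length were 1.44%, 2.24%, 2.04%, 3.05% and 3.96% at these distances. No fall of the GFPplus-only share with distance within the ends was thus seen at equal length.

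**Figure D5:**
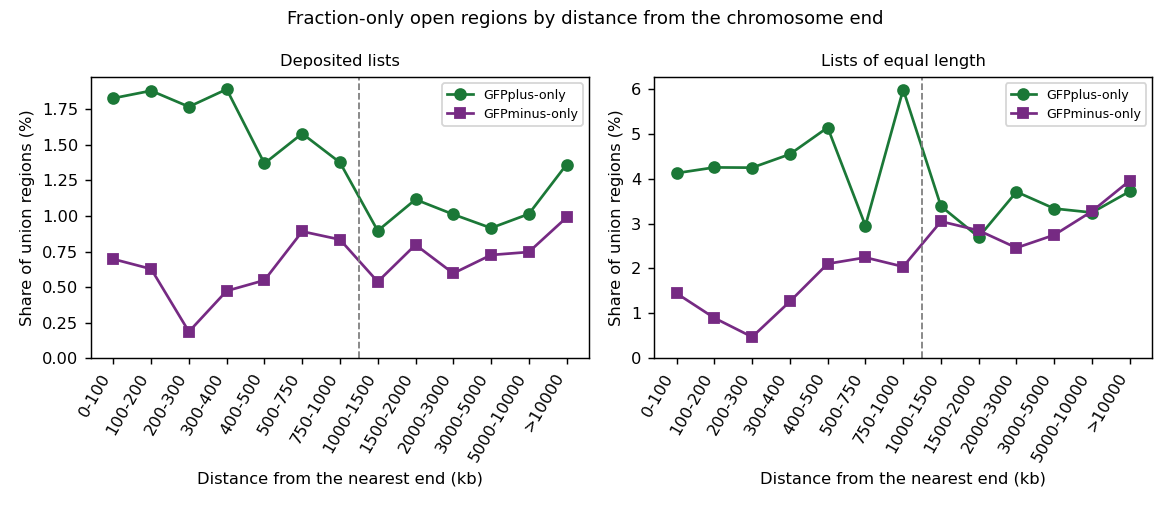
Percent of union regions that are GFPplus-only or GFPminus-only by distance from the nearest chromosome end in kb (dashed line at 1000 kb), on the deposited lists (left) and on lists of equal length (right). On the deposited lists 1.83% and 0.697% of the regions in the outermost 100 kb are GFPplus-only and GFPminus-only, and beyond 10000 kb 1.36% and 0.990%.

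GFPplus-only regions occurred at 44 of the 48 ends and GFPminus-only regions at 31. Of the ends, with all 6 deposited lists, 33 held more GFPplus-only than GFPminus-only regions, 6 held fewer and 9 as many. Without GFPminus replicate 3, which also loosens the rule, the tally turned round on the deposited lists. There 0 ends held more GFPplus-only and 48 more GFPminus-only regions. At equal length it was 34, 8 and 6 ends with all libraries, and 21, 22 and 5 ends without that library. With calls in at least 2 of 3 lists it was 7, 41 and 0 ends. The most GFPplus-only regions at 1 end were 9, at the left end of chromosome 2, which held no GFPminus-only region, and at the left end of chromosome 21, which held 2. The most GFPminus-only regions at 1 end were 8, at the right end of chromosome 2, which held 1 GFPplus-only region. Without GFPminus replicate 3, the left end of chromosome 2 held 9 GFPplus-only and 10 GFPminus-only regions, its right end 2 and 33, and the left end of chromosome 21 held 9 and 15. At equal length and without that library they held 14 and 0, 1 and 10, and 9 and 6. Another region of the same kind lay within 10 kb of 34 of the 168 GFPplus-only end regions (20.2%), against 11.6% of the 2011 in the interiors. The GFPplus-only regions themselves were 2.17 times as dense at the ends, and the part of this density in the share with a neighbour was not tested. For GFPminus-only regions it was 6 of 70 at the ends (8.57%), against 5.22% of the 1457 in the interiors.

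GFPplus-only regions at the ends had higher pileups and backgrounds than those of the interiors in 3 of 3 libraries. In GFPplus-only regions the median background was 1.40 to 1.45 times higher at the ends in 3 of 3 libraries, and the median pileup 1.25 to 1.31 times higher. In GFPminus-only regions the background was 0.929 to 1.08 times that of the interiors, higher at the ends in 2 of 3 libraries, and the pileup was 0.875 to 1 times that of the interiors, higher in 0 of 3. The median fold was higher at the ends in 1 of 3 libraries for GFPplus-only regions and in 0 of 3 for GFPminus-only regions. The calling threshold, which rises with the background, bears on these values too, and its part was not tested. The median percentile of their peaks was 64.7 at the ends and 57.6 in the interiors for GFPplus-only regions, and 49.7 at the ends and 54.0 in the interiors for GFPminus-only regions.

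The strongest GFPplus-only end region lay on chromosome 6 at 94086 to 94378, 94.1 kb from the left end. Its summit held 110, 77 and 53 fragments in GFPplus replicates 1, 2 and 3 over a background of 15.6, 9.57 and 5.41 fragments. The next lay on chromosome 5 at 74793887 to 74794259, with 83, 51 and 37 fragments over a background of 8.14, 5.09 and 3.68 fragments. The other was on chromosome 19 at 63101 to 63553, with 101, 47 and 48 fragments over a background of 9.22, 7.28 and 4.52 fragments. In all 3 the background was above the median of the end peaks in each GFPplus library (2.77, 2.63 and 1.54 fragments), most so on chromosome 6. They were picked by −log10 p, which a higher background raises at a given fold, so their background is a description only. None of the GFPminus lists had a peak in these regions.

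The strongest GFPminus-only end region lay on chromosome 10 at 46121666 to 46122187, 467 kb from the right end. Its summit held 45, 49 and 24 fragments in GFPminus replicates 1, 2 and 3 over a background of 8.33, 7.87 and 3.23 fragments. The next lay on chromosome 13 at 483134 to 483542, with 41, 40 and 17 fragments over a background of 3.12, 2.98 and 1.41 fragments. The other, on chromosome 2 at 59957137 to 59957549, had 20, 25 and 12 fragments over a background of 1.86, 2.11 and 0.83 fragments, which was below the median of the end peaks in each GFPminus library (2.67, 2.62 and 1.52 fragments). None of the GFPplus lists had a peak in these regions.

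The share of a list's own peaks that lay at the ends was compared between the fractions. On the deposited lists it was 6.48%, 6.67% and 6.45% in GFPplus replicates 1, 2 and 3, and 6.16%, 5.98% and 6.64% in GFPminus replicates 1, 2 and 3. The groups overlapped through GFPminus replicate 3, and the difference of 0.275 percentage points was within the spread of the libraries (exact permutation p = 0.3, two-sided; 3 against 3 libraries cannot go below 0.1). With lists of equal length the share was 7.06% ± 0.26 in GFPplus and 6.61% ± 0.047 in GFPminus libraries (SD, n = 3), and the groups did not overlap (6.86% to 7.36% and 6.56% to 6.64%). This difference of 0.447 points had an exact two-sided permutation p = 0.1, the smallest that 3 against 3 libraries allow. At equal length it was 0.118 points without GFPminus replicate 3 (exact permutation p = 0.9), where the lists keep 50396 peaks each, and 0.299 to 0.548 points without 1 of the others. On the deposited lists it was 0.135 points without GFPminus replicate 2 and 0.467 points without GFPminus replicate 3.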

How the data were processed

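ATAC-seq was run on 3 GFPplus and 3 GFPminus libraries. Per the submitters' processing notes, cutadapt 1.3, Bowtie2 2.1.0, deepTools and MACS2 were used with build Zv9 (danRer7); their settings were not given. One narrowPeak list per library was deposited by the authors. For each peak the deposited list gives the fold enrichment at the summit (a ratio to the background), the score, the −log10 p and −log10 q, and the summit offset. These are the authors' own values, used within a list. The lowest deposited −log10 q was 1.30 to 1.31 (q = 0.05).

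From these, union regions, zones, densities and sharing were computed with Python 3.11.15, numpy 2.4.6, pandas 2.3.3 and scipy 1.17.1. The p-values measure the spread between libraries. Background and pileup were solved from fold = (pileup + 1) / (background + 1) and a Poisson tail equal to the deposited −log10 p. Libraries were compared by exact sign-flip or exact permutation tests. The code was tested on simulated data. Members, measures and named positions follow rules chosen with earlier results of these data known. Named were the 5 strongest end regions called in all 6 lists, the 3 strongest of each fraction-only kind, the 3 ends with most and the 3 with fewest regions, the 3 densest 100 kb windows, and the regions nearest to the ends and to the 1 Mb line. Alternatives changed the window, list length, thresholds, overlap, ends, comparison sequence and libraries. No Zv9 sequence, gene or repeat annotation was used here. Coordinates are 1-based. The labels do not say whether replicate numbers pair the fractions, so the main comparison of the fractions used no pairing. Pairing by replicate number was run as an alternative only.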

Additional observations from a re-analysis of the deposited data

How the results depend on the processing

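The density ratio (1.48 to 1.97) and the percentile difference (2.87 to 9.69) kept their direction and passed in each alternative with 6 libraries. The 9.69 came from peaks with a fold of at least 5. At a given fold a higher background alone raises −log10 p, so that setting says little on the percentile. Without 1 library the density ratio ranged from 1.76 to 1.80 and the percentile difference from 4.48 to 5.16. With 5 libraries an exact permutation p cannot be below 0.0625. The fold difference turned to 0.0155 with an end window of 2 Mb and 0.0050 at right ends only, and passed at left ends only (−0.0981, exact sign-flip permutation p = 0.031); the cause was not tested. Its value of 0.145 among peaks with a fold of at least 5 comes from peaks kept by fold itself and says nothing on its sign. The share called in all 6 lists, as a ratio of ends to interiors (1.26), was 1.45 with a window of 500 kb, 1.15 with 2 Mb, 1.19 to 1.25 without 1 library and 1.18 to 1.25 so at equal length. That of GFPplus-only regions (1.33) was 1.09 with 2 Mb, 1.68 against 1 to 5 Mb, 1.08 to 1.33 without 1 library, and at equal length 1.07 with 2 Mb and 1.05 to 1.24 without 1 library (1.08 without GFPminus replicate 3, 1.05 without GFPplus replicate 2 and 1.13 without GFPplus replicate 3). That of GFPminus-only regions (0.767) was 0.579 with 500 kb, 0.451 at equal length, 0.602 with a −log10 q of at least 5, 0.997 against 1 to 5 Mb, 0.710 to 0.894 without 1 library, and at equal length 0.602 with 2 Mb, 0.596 against 1 to 5 Mb and 0.476 to 0.723 without 1 library (0.572, 0.587 and 0.480 without GFPplus replicates 1, 2 and 3, and 0.476, 0.591 and 0.723 without GFPminus replicates 1, 2 and 3). Settings at equal length with a second change were chosen after seeing the data. The mean difference in the share of peaks at the ends (0.275 points) kept its sign in each alternative. It ranged from 0.105 at right ends only to 1.59 against 1 to 5 Mb, where its denominator is smaller. Without 1 library it ranged from 0.135 (GFPminus replicate 2 left out) to 0.467 (GFPminus replicate 3 left out). Deviations of calls correlated at −0.012, 0.020 and 0.011 between same-numbered libraries, which does not settle whether the numbers pair the fractions; under the replicate block the exact permutation p of 0.275 points was 0.5, and that of 0.447 points at equal length 0.25, below which 3 pairs cannot go. By replicate number, the difference in share was 0.325, 0.696 and −0.196 points on the deposited lists, so it turned round between the libraries numbered 3. At equal length it was 0.325, 0.798 and 0.219 points. Depth, unknown without reads, limits what a missing peak shows.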

Other observations

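Left and right ends held similar numbers of regions, 217 ± 42.5 at left ends and 215 ± 39.5 at right ends (SD over 24 chromosome ends each), although the right end was placed by the last peak and the left end by the start of the assembled sequence. Over the 48 ends, the number of regions and the local background of their peaks, relative to the interiors, went together weakly (Pearson r = 0.25, Spearman rho = 0.11, n = 48 ends, all from the same 6 libraries). The most common solved background among the peaks of each library was also used as a reference. Peaks within 0.03 fragments of it made up 11.8% ± 0.59 at the ends and 20.7% ± 1.31 in the interiors of GFPplus libraries (SD, n = 3). In GFPminus libraries they made up 14.8% ± 5.46 at the ends and 26.4% ± 10.5 in the interiors (SD, n = 3). Of the 480 windows of 100 kb at the ends, 4 held no region.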
